A study of Mus musculus with 4 samples.

Results

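The genes studied mark the mesothelial lining of visceral fat and were followed across 4 gene arrays of mouse epididymal adipose tissue. The 10 members were Msln, Upk3b, Upk1b, Lrrn4, Wt1, Gpm6a, Krt7, Krt8, Krt18 and Krt19, among 18820 genes with a probe set of a single symbol. They were chosen by name as markers of this cell layer, and each was read by 1 probe set. Epididymal fat is the pad attached to the epididymis, the coiled duct that stores sperm. The arrays KO1 and KO2 came from CD1d-null mice fed 10 kcal% fat (low-fat diet). WT-HF came from wild type mice fed 45 kcal% fat (high-fat diet), and WT-LF from wild type mice fed the low-fat diet. CD1d presents lipid antigens to natural killer T cells, and the null allele had been crossed onto C57BL/6J for 10 to 12 generations. All mice were C57BL/6, ate chow until an age of 10 to 11 weeks and then the diet for 18 to 19 weeks. Each pool held RNA of 4 to 6 mice, and whether the KO arrays held separate pools is not stated, so the spread behind each p-value is that of these arrays and may be technical.

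The mesothelium is a single layer of flat epithelial cells that covers the organs and fat pads of the body cavities. It comes from mesoderm, makes a slippery surface and combines epithelial features, such as keratin filaments, with mesenchymal ones. The simple-epithelium keratins pair a type II chain (Krt7, Krt8) with a type I chain (Krt18, Krt19), and they are also made by the ducts of the male reproductive tract. Wt1 is a zinc finger transcription factor of the mesothelium and of progenitor cells in visceral fat.

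Cd1d1, the disrupted gene, had log2 intensities of 3.74 (KO1) and 3.98 (KO2), against 11.80 on both wild type arrays, so the arrays followed their genotype labels. Median log2 intensities over all 35556 probe sets lay between 5.68 and 5.71. Over the 11292 genes tested, those with a mean level of at least 5.45, the median gene differed from WT-LF by −0.17 in KO1, −0.02 in KO2 and 0.05 in WT-HF. The number of arrays limits the precision, and neither wild type group has a replicate. All 10 members passed the filter. In bulk tissue, fewer cells of a type and less RNA per cell cannot be told apart.

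The members split into 2 patterns, a division made after their values were seen, and the keratins were on both sides of it. Msln, Upk3b, Upk1b, Lrrn4, Wt1, Gpm6a and Krt7 had their lowest level on KO1, as did 56.7% of all tested genes. Krt8, Krt18 and Krt19 had their highest level on KO1 and their lowest on WT-HF. Of all tested genes, 14.4% were highest on KO1 and 11.7% lowest on WT-HF. The sequences before the starts of 3 keratin genes and 2 other members are shown because these genes carry the contrast: Krt7, Upk3b and Lrrn4 were lowest on KO1, and Krt8 and Krt18 highest there. RefSeq windows of assembly GRCm38.p6 were found for 6 of the 10 members, and each line gives the 250 bases before the start, 5′ to 3′, at chr5:136038246-136038495 (plus strand) for Upk3b, chr2:132880863-132881112 (minus strand) for Lrrn4, chr15:101412153-101412402 (plus strand) for Krt7, chr15:102004343-102004592 (minus strand) for Krt8 and chr15:102027966-102028215 (plus strand) for Krt18. Capitals mark matches to any of the 4 motifs named after the sequences.
Upk3b: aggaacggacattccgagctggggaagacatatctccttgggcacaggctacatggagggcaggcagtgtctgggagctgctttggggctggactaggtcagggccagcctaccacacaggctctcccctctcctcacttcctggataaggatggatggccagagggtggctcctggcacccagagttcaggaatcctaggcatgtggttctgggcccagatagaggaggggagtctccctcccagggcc
Lrrn4: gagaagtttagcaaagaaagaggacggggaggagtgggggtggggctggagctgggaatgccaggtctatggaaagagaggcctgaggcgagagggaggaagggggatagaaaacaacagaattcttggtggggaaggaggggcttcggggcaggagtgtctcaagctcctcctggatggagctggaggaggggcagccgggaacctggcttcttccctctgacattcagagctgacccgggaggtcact
Krt7: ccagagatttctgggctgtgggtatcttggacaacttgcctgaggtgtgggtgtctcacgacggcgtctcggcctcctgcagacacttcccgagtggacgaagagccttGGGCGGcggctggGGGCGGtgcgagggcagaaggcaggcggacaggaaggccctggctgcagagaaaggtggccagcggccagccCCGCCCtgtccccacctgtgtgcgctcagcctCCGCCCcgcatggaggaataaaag
Krt8: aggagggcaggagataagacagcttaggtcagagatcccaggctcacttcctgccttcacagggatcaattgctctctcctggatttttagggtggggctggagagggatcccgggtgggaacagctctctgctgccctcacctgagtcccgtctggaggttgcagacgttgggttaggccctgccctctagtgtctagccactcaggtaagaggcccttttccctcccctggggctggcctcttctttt
Krt18: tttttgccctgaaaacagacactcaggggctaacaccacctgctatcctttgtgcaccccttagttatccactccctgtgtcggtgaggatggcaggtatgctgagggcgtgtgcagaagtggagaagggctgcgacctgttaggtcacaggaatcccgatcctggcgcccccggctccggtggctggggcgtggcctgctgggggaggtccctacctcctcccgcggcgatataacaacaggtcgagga

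The motifs searched on both strands were the TATA box (TATAAA), the GC box (GGGCGG), the AP-1 element (TGANTCA) and the shared element of WT1 and EGR zinc fingers (GCGNGGGNG), whose letters can overlap with a GC box. They occur in 12.4%, 32.7%, 6.75% and 10.5% of the 32851 windows of this length. The Krt7 window held 4 GC boxes, seen as capitals in its line, and the other 4 printed windows held none of the 4 motifs. Gpm6a, also lowest on KO1, had windows that are not printed. They held 44.4% and 33.6% G and C. The latter had 1 match to the TATA box letters, on the strand opposite to the gene, at −211 to −206 from the start. Krt8 and Krt18 are neighbours with 0 protein-coding genes between them in RefSeq, and 23 lie between Krt7 and Krt8. The Krt7 window was also the richest in G and C of the 5, with 66.0%. Upk3b had 60.8%, Lrrn4 59.2%, Krt8 58.0% and Krt18 60.4%, so this content did not separate the 2 patterns. The median over all windows was 52.4%. A match describes the letters and is no evidence of a bound factor.

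**Figure D1:**
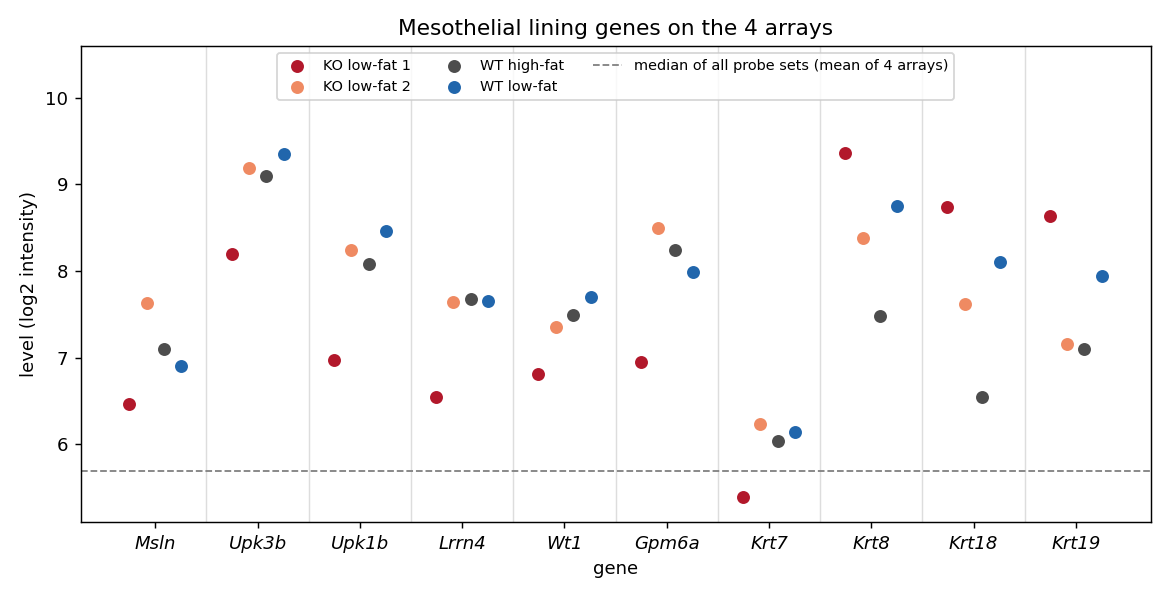
Log2 intensity (vertical axis) of the 10 genes on KO1 and KO2, WT-HF (WT high-fat) and WT-LF (WT low-fat), 1 point per array, with the median of all probe sets dashed. KO1 is the lowest point for 7 genes and the highest for Krt8, Krt18 and Krt19, against 56.7% and 14.4% of all tested genes.

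Among the surface proteins, Msln encodes mesothelin, a glycolipid-anchored protein that gives the mesothelium its classical marker. Its level was 6.47 on KO1, 7.63 on KO2, 7.10 on WT-HF and 6.91 on WT-LF. The KO arrays lay on opposite sides of both wild type arrays. Upk3b, a uroplakin of the mesothelial surface, was at 8.19 and 9.19 on KO1 and KO2, against 9.09 on WT-HF and 9.35 on WT-LF. KO1 stood alone, 2.23-fold below WT-LF, while the 3 other arrays lay within 0.26 of each other. Upk1b, a tetraspanin that pairs with uroplakin III proteins in the bladder lining, was at 6.97 and 8.24 on KO1 and KO2, against 8.09 on WT-HF and 8.47 on WT-LF. Its difference on KO1 was the widest of the members, 2.82-fold below WT-LF.

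Lrrn4, a leucine-rich repeat membrane protein, was at 6.54 and 7.64 on KO1 and KO2, against 7.68 on WT-HF and 7.66 on WT-LF. The 3 arrays other than KO1 were thus nearly level, and KO1 lay 2.17-fold under WT-LF. Gpm6a, a four-pass membrane glycoprotein best known from neurons, was at 6.95 and 8.50 on KO1 and KO2, against 8.25 on WT-HF and 7.99 on WT-LF. The KO arrays were 2.93-fold apart and took both ends of its range. Wt1 was at 6.81 and 7.36 on KO1 and KO2, against 7.49 on WT-HF and 7.70 on WT-LF. It was lower on both KO arrays than on either wild type array, by 1.85-fold and 1.27-fold against WT-LF. Of the other uroplakins, Upk1a, Upk3a and Upk3bl were under the filter on low levels, so their order over the arrays is not read. Upk2, a bladder plaque protein, was at 6.12 and 5.40 on KO1 and KO2, against 5.04 on WT-HF and 5.46 on WT-LF.

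Of the keratins, Krt7 was at 5.40 and 6.23 on KO1 and KO2, against 6.04 on WT-HF and 6.15 on WT-LF. Its value on KO1 was under that array's median and 1.68-fold lower than on WT-LF. No background signal was used to judge a level this low. Krt8, a type II keratin, was at 9.36 and 8.38 on KO1 and KO2, against 7.48 on WT-HF and 8.76 on WT-LF. Krt18, its usual type I partner, was at 8.74 and 7.62 on KO1 and KO2, against 6.55 on WT-HF and 8.11 on WT-LF. Krt8 and Krt18 had the same order of arrays, with KO1 on top, then WT-LF, KO2 and WT-HF. Krt19, the smallest keratin, was at 8.63 and 7.16 on KO1 and KO2, against 7.10 on WT-HF and 7.94 on WT-LF. It followed that order too, with KO2 and WT-HF only 0.06 apart. The other 20 keratins on the list were mostly low, with 4 above the filter: Krt6a, Krt79, Krt80 and Krt222. Of these 4, Krt80 was the only one with a gap of 1.5-fold or more between KO2 and KO1, at 5.82 on KO1 and 6.66 on KO2.

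The first comparison asks whether the lining genes differed between CD1d-null and wild type fat on the low-fat diet. In limma, 0 of the 10 members passed the adjusted threshold of 0.05 in either direction, and 0 had an unadjusted p under 0.05. Each member had an adjusted p = 1. Over all tested genes the same fit called 5 lower in KO (0.0443%), Cd1d1 among them, and 0 higher (0%). At an unadjusted p under 0.05 there were 51 lower and 41 higher of the 11292. Wt1 had the narrowest interval of the members, with a KO mean of 7.09 ± 0.39 (SD, n = 2), against 7.70 on the wild type array, and a difference of −0.61 (95% interval −1.52 to 0.30). Upk1b had the largest mean difference, −0.86 (−2.25 to 0.53), from a KO mean of 7.61 ± 0.90 (SD, n = 2). Upk3b was at −0.66 (−1.85 to 0.53) and Lrrn4 at −0.57 (−1.82 to 0.69). Msln, at 0.14 (−1.16 to 1.44), and Krt8, at 0.12 (−1.05 to 1.28), had the KO mean on the upper side. Krt19 was at −0.04 (−1.58 to 1.5), and its sign turned, to 0.016, after quantile normalization. These intervals span changes of more than 2-fold in at least 1 direction for each member, so the data do not show that the genotypes are alike.

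**Figure D2:**
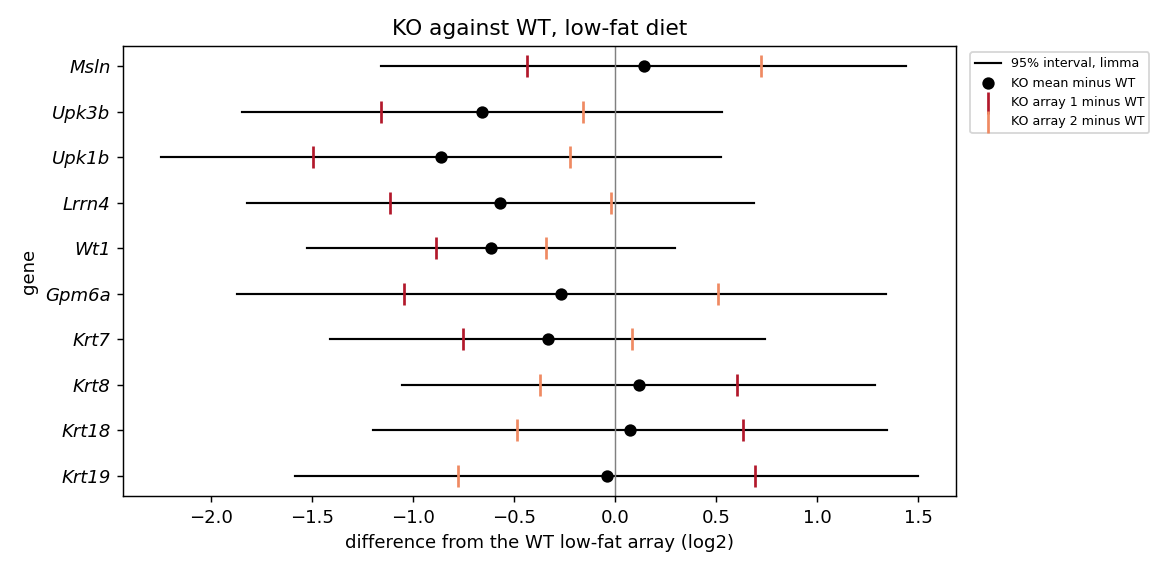
KO minus WT-LF (log2, horizontal axis) for the 10 genes, as the mean of the KO arrays (black point) with limma's 95% interval (line) and each KO array (ticks). All 10 intervals include 0, and the KO arrays lie on opposite sides of 0 for Msln, Gpm6a and the 4 keratins.

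Both KO arrays lay on the same side of WT-LF for 4 of 10 members (Upk3b, Upk1b, Lrrn4 and Wt1, all lower), a share near the 50.3% of all tested genes. On KO1, 6 members were at least 1.5-fold lower than on WT-LF (5.02% of tested genes) and 3 at least 1.5-fold higher (1.93%). The 6 were Upk3b, Upk1b, Lrrn4, Wt1, Gpm6a and Krt7, and the 3 were Krt8, Krt18 and Krt19. Relative to the median of all tested genes on that array, Krt7 was at −0.58, just short of 1.5-fold, and 5 remained past it. On KO2, only Krt19 was at least 1.5-fold lower (4.6% of tested genes) and only Msln at least 1.5-fold higher (5.54%). KO1 was the lowest of the 4 arrays for 7 of 10 members, a share near the 56.7% of tested genes, and the highest for 3, against 14.4%. It was lowest by 1.5-fold or more from each of the 3 other arrays for 5 members, Upk3b, Upk1b, Lrrn4, Gpm6a and Krt7, against 2.63% of tested genes.

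Between the KO arrays, 6 members were at least 1.5-fold higher on KO2 than on KO1, against 14.8% of tested genes, and 3 at least 1.5-fold lower, against 4.45%. The median difference of the 6 non-keratin members was 1.13, and that of all tested genes 0.14. Wt1 was the non-keratin member that stayed under 1.5-fold, with a difference of 0.54. Krt19 was 2.77-fold lower on KO2, Krt18 2.17-fold and Krt8 1.96-fold. The root mean square difference of the non-keratin members was 1.15 between the KO arrays and 0.24 between the wild type arrays, and over all tested genes it was 0.56 and 0.51. For these 6 genes, arrays of 1 genotype and diet thus lay further apart than arrays of the 2 diets. The spread in every test comes from the KO pair, but not from each gene's own gap alone. That gap (1 residual degree of freedom) is combined with those of all tested genes (prior degrees of freedom 4.62).

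**Figure D3:**
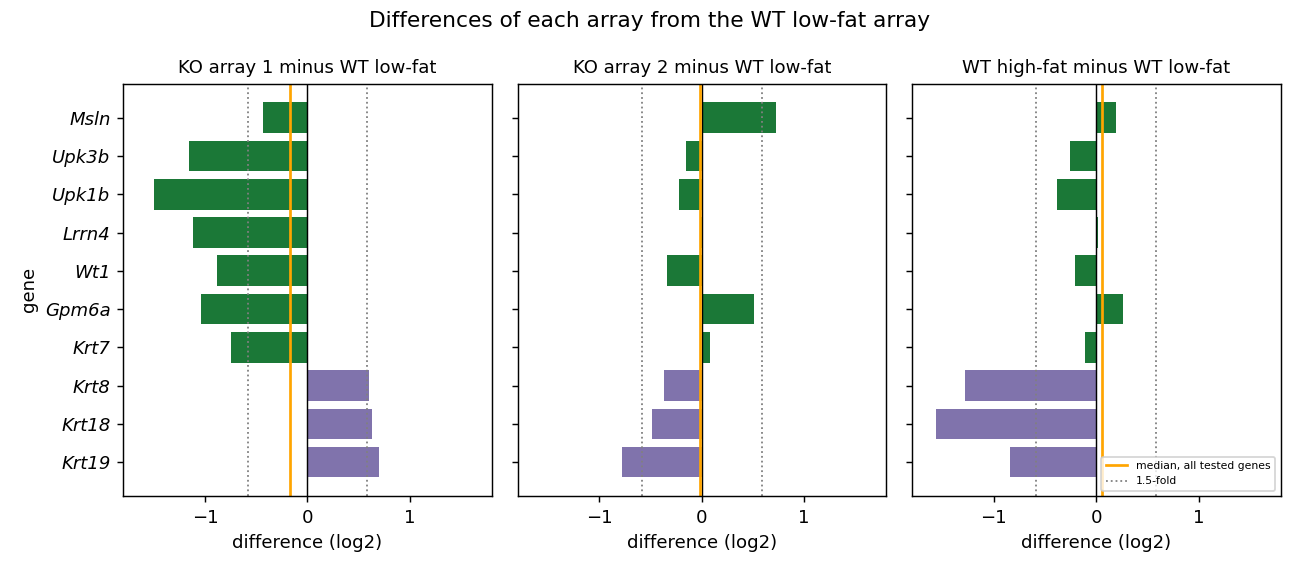
Difference of KO1, KO2 and WT-HF from WT-LF (log2, horizontal axes) for each gene. Green bars are the 7 genes lowest on KO1 and purple bars Krt8, Krt18 and Krt19; dotted lines mark 1.5-fold and the orange line the median of all tested genes.

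The next comparison asks how the lining genes differed between diets in wild type fat, with 1 array a group and therefore no test. Krt8, Krt18 and Krt19 were lower on WT-HF, by 2.43-fold, 2.95-fold and 1.79-fold, and the 7 other members stayed within 0.4 of WT-LF. Thus 3 of 10 members were at least 1.5-fold lower, against 3.82% of tested genes, and 0 were at least 1.5-fold higher, against 7.72%. The 7 differed by −0.38 for Upk1b to 0.26 for Gpm6a, with Msln at 0.19, Lrrn4 at 0.02, Krt7 at −0.11, Wt1 at −0.21 and Upk3b at −0.26. The median over the 10 members was −0.23, made up of −0.09 for the 6 non-keratin members and −1.06 for the 4 keratins, beside 0.05 for all tested genes. WT-HF was the lowest of the 4 for 3 members, all keratins, against 11.7% of tested genes. The sign of Lrrn4 is not established, since its value relative to all tested genes was −0.04.

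The KO arrays were also set beside WT-HF, a pair of groups that differ in both genotype and diet and share the KO arrays with the first comparison. In limma, 0 of 10 members passed the threshold, with an adjusted p = 0.999 for each, while 1 tested gene did (0.00886%). Krt18 had a KO mean of 8.18 ± 0.79 (SD, n = 2) against 6.55, a difference of 1.63 (95% interval 0.36 to 2.90). Krt8 had a KO mean of 8.87 ± 0.69 (SD, n = 2) against 7.48, a difference of 1.40 (0.23 to 2.56). These were the 2 members of 10 with an unadjusted p under 0.05 in limma, 0.0204 for Krt18 and 0.0270 for Krt8. Among all 11292 tested genes, 86 were higher and 41 lower at that limit. KO2 alone was 2.11-fold above WT-HF for Krt18 and 1.88-fold for Krt8, so both KO arrays were on the upper side for these genes. For the 6 non-keratin members the differences between KO2 and WT-HF ran from −0.14 for Wt1 to 0.53 for Msln.

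Other genes known from mesothelium behaved like the non-keratin members in part. Of 22 listed, 21 had a probe set and 17 were tested. On KO1, 5 of 17 were at least 1.5-fold lower than on WT-LF and 0 higher, against 5.02% and 1.93% of tested genes. These were Pkhd1l1, a large fibrocystin-like membrane protein, Nkain4, a sodium pump-interacting protein, Ildr2, Rspo1, a secreted activator of Wnt signalling, and Pdpn, podoplanin. Pkhd1l1 was at 6.49 and 7.66 on KO1 and KO2, against 7.47 on WT-HF and 7.61 on WT-LF. Pdpn, named after its values were seen, was at 8.28 and 9.10, against 8.88 and 9.03 in the same order, and Rspo1, also named afterwards, at 7.17 and 8.03, against 7.82 and 7.90. Relative to the median of all tested genes, Pdpn (−0.57) and Rspo1 (−0.56) were short of 1.5-fold, which left Pkhd1l1, Nkain4 and Ildr2. The list's median difference from WT-LF was −0.47 for KO1, 0.05 for KO2 and −0.11 for WT-HF, and 0 of 17 were at least 1.5-fold apart between the diets. KO1 was lowest for 10 of the 17, close to the 56.7% of all tested genes, and 0 passed the limma threshold. Calb2 (calretinin) and Itln1 (intelectin) were under the filter, with levels from 3.07 to 5.22.

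The simple-epithelium genes were, like Krt8, Krt18 and Krt19, mostly highest on KO1 and lowest on WT-HF. Of 21 junction and identity genes of epithelia, 20 had a probe set and 13 were tested. KO1 was highest for 12 of the 13 and WT-HF lowest for 13 of 13, against 14.4% and 11.7% of all tested genes. The exception on KO1 was Prom2, with a difference of −2.27 from WT-LF. Of the 13, 4 were at least 1.5-fold higher on KO1 than on WT-LF, against 1.93% of all tested genes. Only Prom2, 1 of 13, was at least 1.5-fold lower, beside 5.02%. Epcam, an adhesion molecule of most epithelia, was at 6.88 and 6.02 on KO1 and KO2, against 4.57 on WT-HF and 5.98 on WT-LF. Cdh1, E-cadherin, was at 6.64 and 5.75, against 4.64 and 6.13 in the same order. The summed intensity of the 20 genes was 1971 and 1146 on KO1 and KO2, against 670.2 on WT-HF and 1531 on WT-LF. That of Krt8, Krt18 and Krt19 was 1481 and 674.4, against 408.8 and 953.6. The 6 non-keratin members summed to 835.7 and 1811, against 1644 and 1792.

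Transcription factors and channels of the Wolffian duct, the embryonic origin of the epididymis, had their highest levels on KO1 as well. All 5 tested genes of 10 listed, Pax2, Pax8, Gata3, Emx2 and Aqp9, were highest on KO1, against 14.4% of all tested genes. Pax8 was at 8.73 and 6.65 on KO1 and KO2, against 5.42 on WT-HF and 7.36 on WT-LF. The summed intensity of the 9 genes with a probe set was 1170 and 392.2 on KO1 and KO2, against 283.5 and 628.1 on WT-HF and WT-LF. Markers of the mature epididymal epithelium did not have this order, summing to 6617 and 4858 on KO1 and KO2, against 1047 and 22664 on WT-HF and WT-LF over 28 genes. KO1 was highest for 2 of the 18 tested, a count from which nothing is read beside the same 14.4%. Of the 18, 4 (Spint4, Spint5, Epp13 and Lcn5) were lower in KO past the limma threshold, against 0.0443% of all tested genes. The lowest deposited intensity over all probe sets was 5.71, so a value above 0 does not show that a marker was expressed. The part of duct epithelium in the levels of Krt8, Krt18 and Krt19 was not tested.

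**Figure D4:**
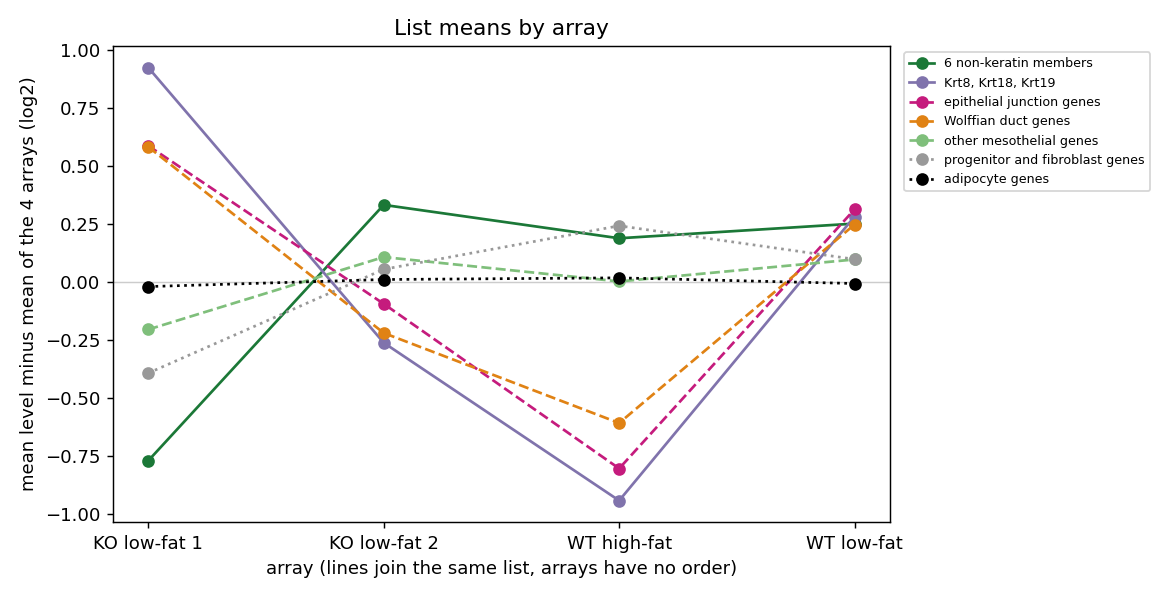
Mean log2 level of each gene list on each array, minus its mean over the 4 arrays (vertical axis), over all genes of the list with a probe set. The 6 non-keratin members are lowest on KO1, where Krt8, Krt18 and Krt19 and both epithelial lists are highest, and the adipocyte list is nearly flat.

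Lists of other cells of the fat pad are given beside the members. The median difference of KO1 from WT-LF was −1.08 for the 6 non-keratin members, −0.51 for 13 progenitor and fibroblast genes, −0.44 for 15 macrophage genes and −0.26 for 11 genes of mesothelial to mesenchymal transition. It was 0.02 for 14 adipocyte genes, 0.01 for 13 endothelial genes and 0.34 for 13 smooth muscle and pericyte genes, against −0.17 for all tested genes. KO1 was lowest for 12 of the 13 progenitor and fibroblast genes, against 56.7% of all tested genes, but for 7 of the 13 once arrays were centred on the median of tested genes. Their summed intensity was 11718 and 15659 on KO1 and KO2, against 16207 on WT-HF and 14438 on WT-LF. KO1 was lowest for 12 of 15 macrophage genes, beside the same 56.7%, and for 11 with that centring. They summed to 7671 and 18238 on KO1 and KO2, against 20646 and 9550 on WT-HF and WT-LF. The macrophage sums differed between the diets by more than 2-fold, and those of the non-keratin members did not. Smooth muscle and pericyte genes were highest on KO1 for 8 of 13, against 14.4% of all tested genes. With arrays centred on the median of tested genes the count was 9. That centring also raised it from 7 to 11 for adipocyte genes and from 4 to 11 for endothelial genes, so it depends on scaling. Smooth muscle and pericyte genes summed to 11637 and 7273 on KO1 and KO2, against 7606 and 7099 on WT-HF and WT-LF. Adipocyte genes summed to between 99937 and 100634 on the 4 arrays. Whether these cell types have a part in the members' levels was not tested.

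Relatives and pathway partners of single members gave few parallels. Gpm6b, the closest relative of Gpm6a, was at 7.36 and 8.38 on KO1 and KO2, against 8.84 on WT-HF and 7.78 on WT-LF. Its diet difference, 1.05, was larger than that of Gpm6a, 0.26, and its difference between the KO arrays, 1.02, was smaller than 1.55. The neural and Schwann cell list, relevant because Gpm6a is a neuronal gene, had 3 tested members of 14, which went different ways. Their differences of KO1 from WT-LF ran from −0.61 to 0.41. Stmn2 was at 5.91 and 6.26 on KO1 and KO2, against 6.31 and 6.24 on WT-HF and WT-LF. Ncam1 was at 6.69 and 6.07, against 5.33 and 6.27, highest on KO1 and lowest on WT-HF. Of 9 tested retinoid pathway genes, 1 was at least 1.5-fold lower on KO1 than on WT-LF, a count from which nothing is read beside 5.02% of all tested genes. It was Aldh1a2, a retinoic acid-making enzyme of mesothelium, at 5.88 and 7.05 on KO1 and KO2, against 7.24 on WT-HF and 6.59 on WT-LF. Egr2, a zinc finger factor that binds sites like those of WT1, was at 5.45 and 6.77, against 7.20 and 5.77 in the same order. Gpm6b, Aldh1a2 and Egr2 all had the order of the macrophage sums given before, and a macrophage part in their levels was not tested.

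The genes most like the members over the 4 arrays were ranked by the root mean square distance of their centred log2 levels from the members' mean profile. For the 6 non-keratin members the nearest was Pkhd1l1, at 0.04, which was already on the list of other mesothelial genes. Cacybp (0.08), Vcan (0.08), Cd209d (0.09) and Trim13 (0.09) followed, and the median over all candidate genes was 0.40. Within the members, Lrrn4 and Upk3b were nearest to their own mean, at 0.07 and 0.09, and Msln farthest, at 0.26. For the 4 keratins the nearest were Spint1 (0.05), Snhg15 (0.06), Spint2 (0.07), Lgals4 (0.07) and Ncam1 (0.08), while Krt7 itself lay 0.71 from that mean. With Krt7 left out, a choice made after the values were seen, the nearest to Krt8, Krt18 and Krt19 were Cldn7 (0.06), Mboat1 (0.09), Tmc4 (0.09), Cd52 (0.12) and Cldn3 (0.13). Cldn7, a tight junction protein of epithelia, was at 7.22 and 6.13 on KO1 and KO2, against 5.32 on WT-HF and 6.66 on WT-LF. These distances describe 4 arrays and carry no test.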

How the data were processed

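The authors deposited 1 linear intensity per probe set and array; per the submitters' processing notes, RMA was run in R 2.15.0. Per the labels' protocols, each array started from 100 ng of pooled RNA. No genome build for the probe sets is named in these sources. The log2 of the deposited intensity was taken with no further normalization. Of 35556 probe sets, the 21218 with 1 symbol were used (1881 had several and 12457 none listed), and 21185 matched the RefSeq table by Entrez ID. A gene was read by its probe set with the highest mean, and genes from the 40th percentile of mean level upwards were tested. limma 3.58.1 (R 4.3.3) fitted 3 group means, with eBayes, two-sided tests and Benjamini-Hochberg adjustment at 0.05. Its 1 residual degree of freedom was the KO pair's (prior degrees of freedom 4.62), and each unreplicated wild type array was taken to vary as that pair does. Single arrays were compared by a 1.5-fold limit. The members and gene lists were chosen with earlier results of these data known. Named were all members, family members of the keratins and uroplakins, genes past the threshold, up to 5 genes of each list with the largest difference in either comparison, and the 5 nearest to each profile among 11018 candidates. The fit was tested on simulated data. Alternatives covered the filter, scaling, probe set rule, variance model, fold limit and each KO array left out.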

Additional observations from a re-analysis of the deposited data

How the results depend on the processing

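Under the alternatives run, 0 of 10 passed the limma threshold in either comparison of KO with each filter, scaling, probe set rule and variance model, and KO1 was lowest for 7 and highest for 3 under each scaling. Of the members' values, 5 changed sign with another setting: Lrrn4 in WT-HF minus WT-LF, to −0.03 after quantile normalization and −0.05 with arrays centred on tested genes, Krt19 in KO minus WT-LF, to 0.016 after quantile normalization (from −0.04) and to 0.070 with arrays centred on tested genes (a scaling added after the data were seen), and Msln in KO minus WT-HF, to 0.13 with that centring. Genes lower in KO against WT-LF numbered 5 as reported, 0 without the low-signal filter, 1 with arrays centred on all probe sets, 3 after quantile normalization and 3 with probe sets averaged. Against WT-HF the count of lower genes was 0 without the filter (1 as reported), and 2 genes were higher with centring on tested genes. That centring gave 903 genes higher and 1059 lower on KO2 than on KO1, and 419 higher and 171 lower on KO1 than on WT-LF, of which 5 lower were members. Without the filter, 637 genes were higher there. At 2-fold, genes numbered 274 higher and 157 lower between the diets, 464 higher and 148 lower between the KO arrays, and, against WT-LF, 90 higher with 82 lower for KO1 and 189 higher with 119 lower for KO2. The members past 2-fold were then 4 lower with 0 higher for KO1, and 0 either way for KO2. Leaving out a KO array leaves each member's value on the other array, with no residual degree of freedom and no test, and 6 members changed sign against the KO mean: Msln and Krt19 without KO2, and Krt8, Krt18, Krt7 and Gpm6a without KO1. With KO1 left out these ran from −0.78 for Krt19 to 0.72 for Msln, and with KO2 left out from −1.50 for Upk1b to 0.69 for Krt19. No paired analysis was possible because the wild type groups have 1 array each. No background signal was used here, which limits how Krt7 on KO1 can be read.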
